A study of Homo sapiens with 14 samples.

Results

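NR0B1 (ENSG00000169297), 1 of 19970 protein-coding genes on the autosomes and X, was examined in CUT&RUN peak lists of TC-32 cells. It was taken by name, and every region of 10 lists that overlapped its gene body with 10, 50 or 200 kb either side was kept: 44 FLI1 regions, 6 H3K9me3 regions, and 0 for H3K27ac and H3K27me3. TC-32, a cell line derived from Ewing sarcoma and driven by the fusion EWSR1::FLI1, was labelled wild type and was untreated. CUT&RUN releases and sequences the DNA beside an antibody's target. FLI1 was profiled in sets A and B (2 replicates each), H3K27ac in set A (2), H3K9me3 and H3K27me3 in set B (2 each), and IgG, the control of every list, in both sets (2 each). The labels do not explain the sets or say that replicates were separate cultures, so the spread between them may be technical. The antibody target is given as FLI1, so the fusion and any unfused FLI1 cannot be told apart.

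NR0B1, also called DAX1, is an unusual nuclear receptor without the usual DNA-binding domain. It is known as a repressor of steroid-hormone gene regulation through NR5A1, and in Ewing sarcoma as a gene that EWSR1::FLI1 activates from an upstream GGAA microsatellite. The GGAA tetramer is the core bound by ETS factors, and the fusion is known for binding arrays of it. H3K27ac marks active promoters and enhancers, while H3K27me3 and H3K9me3 mark Polycomb-type and heterochromatic repression.

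On hg38 the gene lies on the minus strand of chromosome X from 30304206 to 30309390, with exon 1 from 30308196 to 30309390 and exon 2 from 30304206 to 30304823 in the longer transcript. A shorter annotated transcript has its exon 2 from 30305674 to 30305855, inside the intron of the longer one. The array lies between genes, 1368 to 1469 bases upstream of the start, at chrX:30310758-30310859. In the reference it consists of runs of 7, 7 and 11 consecutive GGAA units, read toward the gene, with single-base gaps between them, 25 units in all. The sequence is shown because the strongest FLI1 region of the locus lay on it in each list; it is written on the gene's strand (chrX:30310709-30310908, minus strand), with the GGAA runs in capitals.

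NR0B1 microsatellite: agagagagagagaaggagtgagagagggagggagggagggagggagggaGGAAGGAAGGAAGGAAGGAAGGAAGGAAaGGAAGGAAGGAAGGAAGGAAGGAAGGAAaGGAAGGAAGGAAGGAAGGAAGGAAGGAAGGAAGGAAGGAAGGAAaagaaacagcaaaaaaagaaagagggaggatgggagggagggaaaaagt

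The number of units in TC-32 itself is not analysed here, and all unit counts are those of the reference.

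The next sequence is the promoter, the 250 bases before the start (RefSeq table, GRCh38.p14, chrX:30309391-30309640, minus strand). It is shown because FLI1 regions reached into it in all 4 libraries although the summits lay elsewhere. GGAA and TTCC, its other strand, are in capitals.

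NR0B1 promoter: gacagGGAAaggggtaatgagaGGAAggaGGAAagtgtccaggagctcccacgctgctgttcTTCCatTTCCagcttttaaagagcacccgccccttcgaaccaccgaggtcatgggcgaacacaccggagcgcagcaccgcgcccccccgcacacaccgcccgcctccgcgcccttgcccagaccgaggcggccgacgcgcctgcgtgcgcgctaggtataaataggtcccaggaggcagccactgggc

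It held 5 such cores (GGAA or TTCC, each counted wherever it starts), and 18.6% of 35116 promoter stretches of the same 250 bases held at least as many. At least 1 core was present in 92.7% of them. A run of 4 GGAA or TTCC units was in 0.02% of these promoter stretches and was not in that of NR0B1.

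FLI1 regions stood close together across the gene and its flanks in all 4 libraries. Within 10 kb set A held 6 regions in replicate 1 and 7 in replicate 2, while set B held 6 and 5. They covered 10.5, 13.3, 5.37 and 6.64 kb, which is 41.8%, 52.6%, 21.3% and 26.4% of the window. The median over all protein-coding genes was 1 region in each list. FLI1 was present in all 4 libraries at 56.3% of genes within 10 kb, 73.9% within 50 kb and 91.4% within 200 kb, so presence alone was common. At least as many regions as at NR0B1 in every library were found at 2.96% of all genes, and at 0.551% of the 8352 genes with a body of at most 20 kb, the class of NR0B1 with its 5.18 kb. The counts did not grow out to 50 kb, where 12.2% of genes had as many. Within 10 kb and at a −log10 q of at least 10, set A held 3 and 3 regions and set B held 6 and 4. Which set held more regions thus depended on the cutoff.

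**Figure D1:**
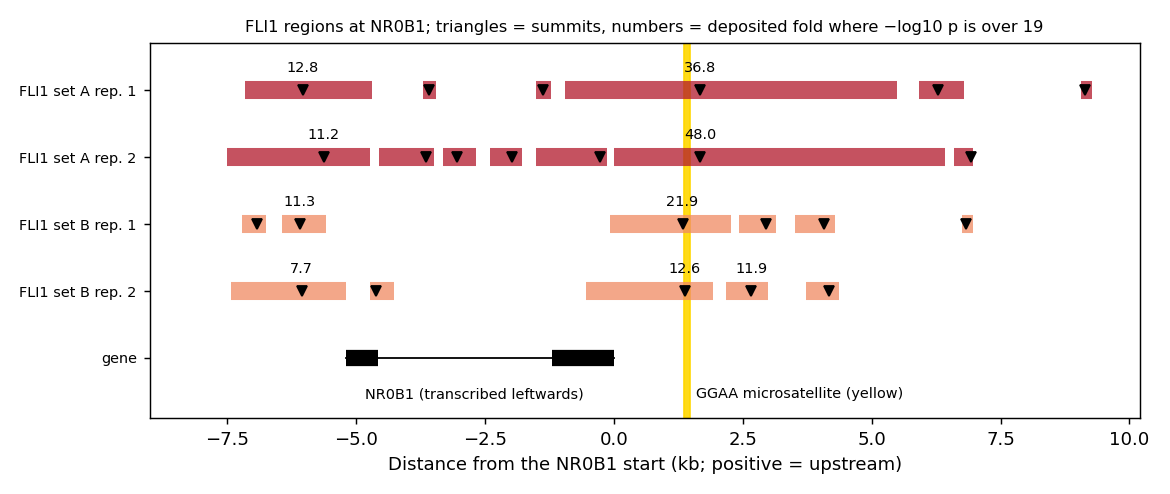
FLI1 regions of the 4 libraries (bars) against distance from the NR0B1 start in kb, with summits as triangles, the deposited fold beside the stronger ones, exons of the longer transcript as black boxes and the GGAA microsatellite in yellow. Set A has a single wide region over the microsatellite (folds 36.8 and 48.0), set B a narrower region there (21.9 and 12.6) followed by separate ones upstream.

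Where regions of the 4 lists that share at least 1 base were joined, 5 regions resulted within 10 kb, of which 2 held peaks of all 4 libraries and 3 of a single set A library. At least 2 regions with peaks of all 4 libraries were present at 21.8% of genes. The larger of the pair ran from 30307881 to 30316358, from the intron across exon 1, the start and the microsatellite. Its length of 8.48 kb was above that of 99.02% of the 16163 regions found in all 4 libraries, whose median was 1161 bases. The other ran from 30301896 to 30305935, from the intron over exon 2 and past the gene's 3′ end.

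The microsatellite region was the strongest of the locus in every list. In set A replicate 1 it ran from 30308438 to 30314883 with a fold over IgG of 36.8. In set A replicate 2 it ran from 30309396 to 30315814 with a fold of 48.0. Set B replicate 1 had it from 30309324 to 30311670 with a fold of 21.9. Set B replicate 2 had it from 30308847 to 30311322 with a fold of 12.6. The next region upstream in that list was close, with a fold of 11.9 and a −log10 p of 21.5. For the microsatellite region the deposited −log10 p was 113.6, 159.6, 53.2 and 32.8 in the same order. Both set A values thus lay above both set B values on each scale. The widths of 6446, 6419, 2347 and 2476 bases exceeded 99.4%, 99.5%, 99.1% and 98.9% of regions in their lists.

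By fold, the region stood at percentile 96.8, 97.99, 92.4 and 78.3 of its list. The set means were 97.4 and 85.4, a difference of 12.01 points (exact permutation test, two-sided, p = 0.333, n = 4, adjusted p = 0.381 over 8 set comparisons). With 2 libraries a set, 0.333 is the smallest p that this test can give, so no set comparison here could reach significance. Without set B replicate 2 the difference was 4.93 points, and without set B replicate 1 it was 19.1.

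The fold mixes the antibody's fragments with the control level, and the pair could be solved for from fold and p. At the microsatellite summit there were 89 fragments (95% exact Poisson interval 71.5 to 109.5) for set A replicate 1 and 103 (84.1 to 124.9) for its replicate 2. Set B had 49 (36.3 to 64.8) for replicate 1 and 53 (39.7 to 69.3) for replicate 2. These intervals cover counting error only. The control level under those summits was 1.18 and 1.17 for set A, the lowest level used anywhere in those lists. For set B it was 1 and 2, where the lowest levels were 0.481 and 0.406. Set B replicate 2 had as many fragments as replicate 1 but a lower fold. Its control level was higher, at 2 against 1. Its fragments also entered the fold at a smaller library scale, 0.6925 against 0.874. How much each contributed was not tested.

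Mean coverage was 1.33 and 1.17 fragments per base for set A, against 0.550 and 0.586 for set B. Divided by it, the microsatellite summits stood 67.1 times (53.9 to 82.6), 88.3 times (72.1 to 107.1), 89.0 times (65.9 to 117.7) and 90.4 times (67.7 to 118.2) above the library's mean. All 4 intervals overlapped, unlike those of the folds. The set A mean less the set B mean was -11.99 on this scale and 25.2 on the fold scale (exact permutation p = 0.333 each, adjusted p = 0.381, n = 4). The direction of the set difference at the microsatellite thus depended on the scale. Without set A replicate 1 the scaled difference was -1.38, and without set A replicate 2 it was -22.6.

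**Figure D2:**
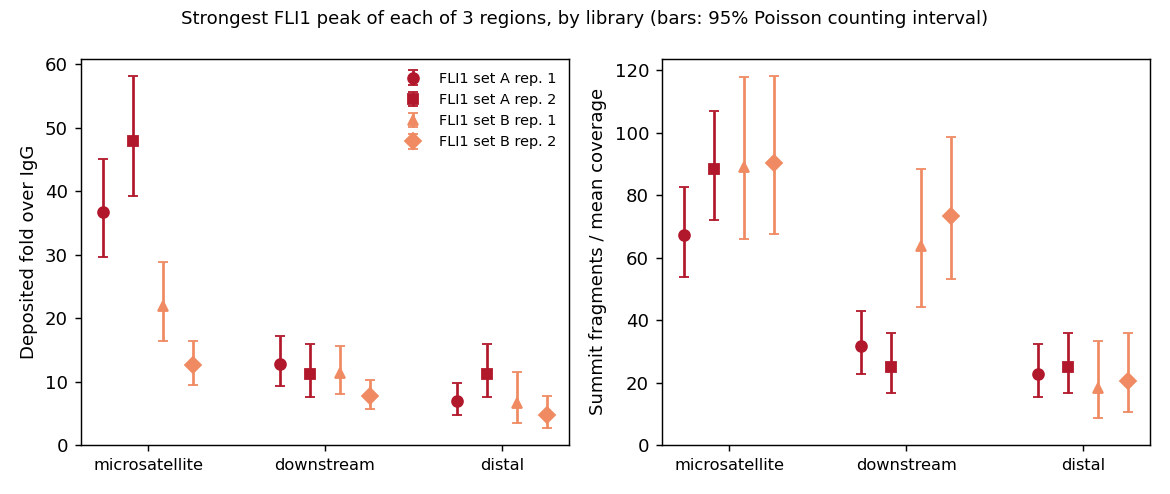
Strongest FLI1 peak of 3 regions found in all 4 libraries, by library, as the deposited fold over IgG (left) and as summit fragments divided by the library's mean coverage (right); bars are 95% Poisson counting intervals. At the microsatellite the folds fall from 48.0 to 12.6 across libraries while the scaled fragments lie between 67.1 and 90.4, and at the downstream region both set B values (63.6 and 73.3) are above both set A values.

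The position of the summit also differed between the sets. In set A the summits lay 210 and 204 bases beyond the far edge of the array, 1679 and 1673 bases upstream of the gene start. The summit of set B replicate 1 lay 34 bases from its near edge, and that of replicate 2 lay inside it. The longest uninterrupted run within 250 bases of the summit was therefore 7 units in set A and 11 units in set B. The joined array of 25 units had its nearest edge within that distance in each library. In set A its run of 11 units, the one nearest the gene, lay beyond that distance. Within 100 bases a run was found in the set B libraries alone. Of all regions, 4.3%, 4.22%, 3.98% and 4.27% in the 4 lists had any run of at least 4 units within 250 bases of the summit. An array of 25 or more joined units with its nearest edge within 250 bases was found at 19, 23, 12 and 14 regions.

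A summit beside rather than on the array was the usual position elsewhere. In 766 regions with peaks of all 4 libraries and a joined run of at least 10 units, the median distance from summit to run was 215 and 208.5 bases for set A, against 195 and 197 bases for set B. The NR0B1 distances in set A were close to these medians, with 45.6% and 46.2% of regions at least as near. In set B, 6.01% of regions were as near as NR0B1 in replicate 1 and 0.522% (4 regions) in replicate 2. Both set B summits were within 34 bases at 2.09% of the regions. Across the 766 regions, the summit was within 100 bases of the run at 0.653% and 1.175% for set A replicates 1 and 2. The set B shares were 18.0% and 15.5%, so summits this near were more frequent with set B at these regions too. Both set A summits were farther from the run than both set B summits at 39.6% of the regions, so that order at NR0B1 was common. The opposite order held at 17.8% of the regions. Both set A regions were wider at 95.3%, as at NR0B1.

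**Figure D3:**
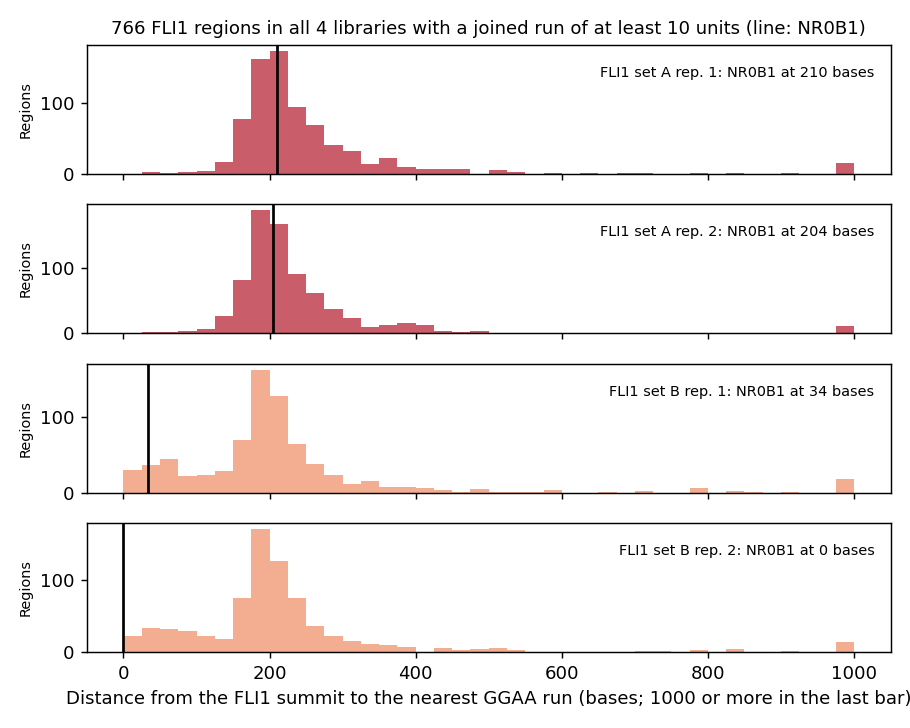
Distance in bases from the FLI1 summit to the nearest GGAA run, as histograms over 766 regions found in all 4 libraries with a joined run of at least 10 units, 1 panel per library; the black line is NR0B1. The NR0B1 summits of set A (210 and 204 bases) fall in the main peak of the histograms, and those of set B (34 and 0 bases) at their left end.

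FLI1 regions lay over a minority of arrays as long as that of NR0B1. FLI1 was present in all 4 libraries at 8.22% of 16350 runs of at least 4 consecutive units, at 22.6% of runs of at least 10 and at 30.5% of runs of at least 15. With runs joined over gaps of up to 4 bases, the share was 2.53% at 4 to 5 units and 31.1% (204 of 657) at 16 to 19 units. At 20 to 29 units, the class of NR0B1, it was 21.8% (31 of 142). How well reads can be placed in long arrays was not tested. On X, 5.21% of runs of at least 4 units had FLI1 in all 4 libraries.

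**Figure D4:**
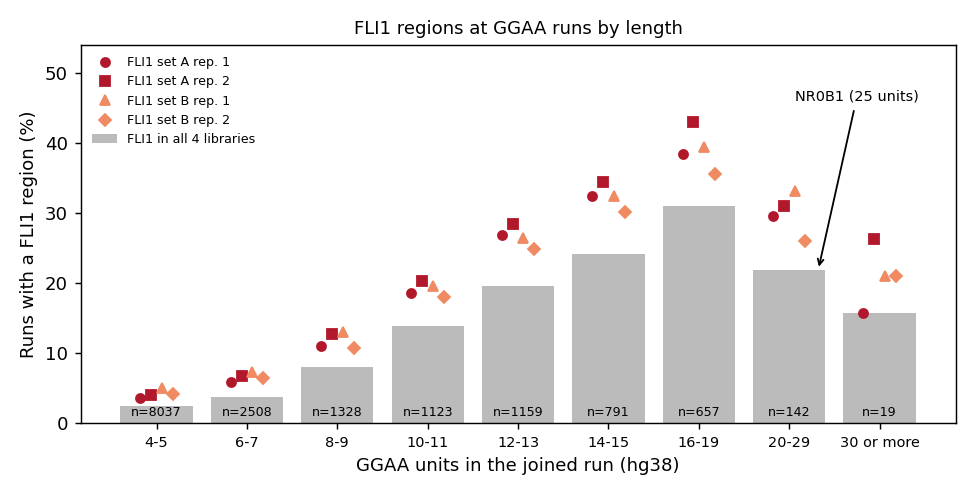
Share of GGAA runs in hg38 that a FLI1 region overlaps, in percent, by the number of units in the joined run; grey bars are runs with FLI1 in all 4 libraries, points the single libraries, n the number of runs. The share rises from 2.53% at 4 to 5 units to 31.1% at 16 to 19 units and is 21.8% in the class of NR0B1.

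Set B had separate regions upstream of the array where set A had a continuous one. In set B replicate 1 a region from 30311814 to 30312528 had a fold of 10.1, and the next, from 30312905 to 30313679, a fold of 9.05. In set B replicate 2 they lay from 30311557 to 30312381 (fold 11.9) and from 30313116 to 30313752 (fold 9.10). Their summits, 2667 to 4168 bases upstream of the start, had no run of 4 units within 250 bases. The reference has no such run beyond the array on this side within 200 kb. The wide set A regions spanned all 4 of these set B regions. Beyond them, a region about 6.9 kb upstream had its summit at 30316312 in set A replicate 2 (fold 3.85) and at 30316216 in set B replicate 1 (fold 8.35), with 12 GGAA or TTCC cores within 250 bases of each, against list medians of 6 and 7. The region of set A replicate 1 there had its summit at 30315680 (fold 6.85), with 3 cores. A last region, called in set A replicate 1 alone, had its summit at 30318522 (fold 5.31), with 4 cores.

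Over the gene body the lists differed more. Set A had regions in the intron of the longer transcript, with folds of 4.13 and 5.77 in replicate 1 and of 4.62 to 6.92 in replicate 2. Of these, the summits of fold 5.77 (replicate 1) and 6.46 (replicate 2) lay in exon 2 of the shorter transcript. A region of set A replicate 2 in exon 1 had a fold of 7.39. In set B replicate 2 a region with its summit in exon 2 had a fold of 6.39. Set B replicate 1 had no region inside the gene apart from the edge of the microsatellite region, which reached past the start.

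The other region of all 4 libraries had its summits just past the 3′ end of the gene, and both set A regions reached over most of exon 2. Its fold was 12.8 and 11.2 for replicates 1 and 2 of set A. Set B had folds of 11.3 and 7.69. Replicate 1 of set B had another region beside it, from 30302182 to 30302652, with a fold of 10.3. The folds of the sets overlapped (set A less set B 2.48, exact permutation p = 0.667, n = 4, adjusted p = 0.667). Without set B replicate 1 this difference was 4.27, and without set B replicate 2 it was 0.685. The summits lay 850, 904 and 871 bases past the gene's end in set A replicate 1 and set B replicates 1 and 2, and 440 bases past it in set A replicate 2.

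This region had no GGAA run of 4 units within 250 bases of a summit. The sequence around the summits of 3 libraries, all but set A replicate 2 (hg38, chrX:30303261-30303410, minus strand), is shown to contrast with the array. It holds a single core, in capitals.

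NR0B1 downstream summit: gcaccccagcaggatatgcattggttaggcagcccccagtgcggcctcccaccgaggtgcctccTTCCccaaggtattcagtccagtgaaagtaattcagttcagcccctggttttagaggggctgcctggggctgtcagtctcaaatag

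A core of either strand was within 75 bases of the summit in 81.0% to 85.5% of the regions of the 4 lists, so the presence of a core was common. The nearest other run, 4 GGAA units at 30301095 to 30301110, lies farther downstream of the gene.

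Set A had 42 and 29 fragments at the downstream summit, and set B had 35 and 43. Divided by mean coverage these were 31.7 (22.8 to 42.8) and 24.9 (16.7 to 35.7) in set A, against 63.6 (44.3 to 88.5) and 73.3 (53.1 to 98.8) in set B. The set A intervals and the set B intervals did not overlap, and the set A mean was lower by a difference of -40.2 (exact permutation p = 0.333, n = 4, adjusted p = 0.381). The control level was 2 and 1.69 for set A, against 1.8 and 3 for set B, above the lowest level of each list.

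Within a library, the microsatellite summit can be set against the downstream summit without reference to depth. The ratio of fragments was 2.12 (95% exact binomial interval 1.45 to 3.14) and 3.55 (2.33 to 5.56) in set A. It was 1.40 (0.889 to 2.23) and 1.23 (0.809 to 1.89) in set B. In set A the microsatellite thus had more fragments than the downstream region beyond counting error. In set B the intervals included equal numbers. The log2 ratio differed by 1.06 between the set means (exact permutation p = 0.333, n = 4, adjusted p = 0.381), and by 0.69 without set A replicate 2.

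Between 10 and 200 kb from the gene, FLI1 regions lay almost wholly on the upstream side. Within 200 kb the lists held 11, 18, 9 and 6 regions, against medians of 7, 8, 9 and 7 over all genes, and 15.8% of genes had at least as many in every library. A single region of set A replicate 2, at 30149485 to 30149726 (fold 4.83), lay on the downstream side. The others lay from 141 kb upstream outward, between NR0B1 and TASL, the next protein-coding gene, 249.4 kb away. None had a GGAA run of 4 units within 250 bases of its summit, and none could have. The reference has no such run within 200 kb of the gene apart from the array and the run at 30301095 to 30301110.

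**Figure D5:**
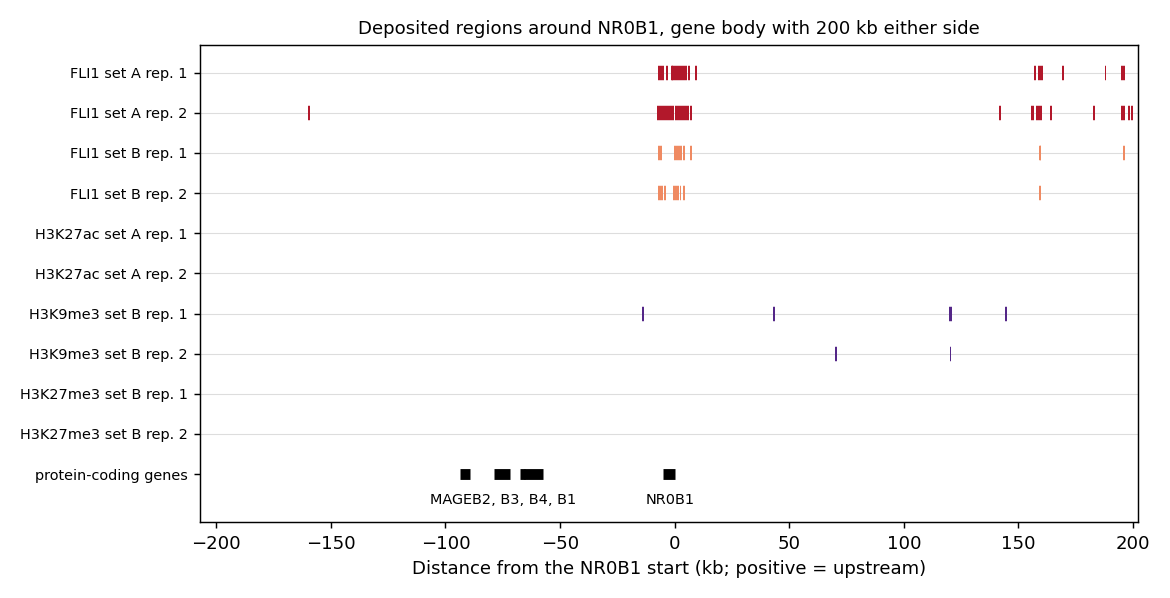
Regions of all 10 lists (bars) against distance from the NR0B1 start in kb, upstream to the right, with protein-coding genes in black. FLI1 regions form a group at the gene in all 4 libraries and another about 141 to 200 kb upstream, and the H3K27ac and H3K27me3 rows are empty.

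The only distal region with peaks of all 4 libraries lay about 159 kb upstream, from 30467958 to 30469892. Set A had folds of 6.92 and 11.2 there, and set B had 6.58 and 4.66. Summit fragments were 30, 29, 10 and 12. Divided by mean coverage they were 22.6, 24.9, 18.2 and 20.5, with overlapping intervals (set A less set B 4.43, exact permutation p = 0.333, n = 4, adjusted p = 0.381). Another region, 195 kb upstream, had folds of 11.9 and 8.77 in set A replicates 1 and 2 and of 6.18 in set B replicate 1, and was not found in set B replicate 2. The sequence around the set B summits of the distal region (hg38, chrX:30468246-30468395, minus strand; cores in capitals) is printed for comparison with the array.

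NR0B1 distal summit: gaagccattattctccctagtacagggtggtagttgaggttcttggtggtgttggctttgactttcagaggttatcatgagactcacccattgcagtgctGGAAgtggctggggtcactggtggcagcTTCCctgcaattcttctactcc

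H3K27ac was not called anywhere near the locus. Both lists had 0 regions within 10, 50 and 200 kb. The nearest H3K27ac region lay 948.4 kb downstream in replicate 1 and 948.6 kb downstream in replicate 2, and on the upstream side 10777 and 7040 kb away. Mean coverage of these libraries was 1.73 and 1.68 fragments per base, above that of each FLI1 library, and the median summit had 17 and 15 fragments. Their lists were nevertheless shorter, with 10219 and 17366 regions against 29339 to 40590 for FLI1. The absence of a call does not show that the mark is absent, and no level of H3K27ac at NR0B1 can be read from a peak list.

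How unusual this is depended on the set of genes compared. H3K27ac was in both libraries at 28.3% of all genes within 10 kb, 44.8% within 50 kb and 70.6% within 200 kb. It was in neither library at 54.8%, 38.0% and 17.6%. Among genes with FLI1 in all 4 libraries, 33.9% had H3K27ac in neither library within 10 kb, 23.3% within 50 kb and 11.7% within 200 kb. Among the 859 genes on X, however, 79.4% had none within 10 kb, 70.9% within 50 kb and 50.3% within 200 kb. H3K27ac regions on X numbered 147 and 283, or 1.44% and 1.63% of the lists, against 2.50% to 3.16% for FLI1. Of all genes 3.22% were at least 948.4 kb from the nearest H3K27ac region of either list, and of X genes 19.3%.

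FLI1-bound arrays elsewhere also often lacked a called H3K27ac region. Of the 766 regions with a joined run of at least 10 units and FLI1 in all 4 libraries, 52.2% had H3K27ac in neither library within 10 kb, 37.6% within 50 kb and 20% within 200 kb. Of the 30 of them on X, 43.3% had none within 200 kb.

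H3K27me3 had 0 regions in both libraries out to 200 kb, as at 37.6% of genes (78.1% within 10 kb and 63.5% within 50 kb). The nearest lay 1717 and 1408 kb downstream. Of all genes 4.06% were at least 1408.2 kb from the nearest H3K27me3 region of either list, and of X genes 10.9%. Neither H3K27ac nor H3K27me3 was called in any library at 37.0% of genes within 10 kb, 18.9% within 50 kb and 5.48% within 200 kb.

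Of the 6 H3K9me3 regions within 200 kb, 4 were called in a single replicate. The whole lists held 36687 regions in replicate 1 and 21770 in replicate 2, and their share called in a single replicate was not counted. In replicate 1 a region from 30295108 to 30296042 (fold 4.57, percentile 43.9 of the list) lay 8.16 kb past the gene's 3′ end, and replicate 2 had none within 10 kb. H3K9me3 was in both libraries at 25.3% of genes within that distance and in neither at 65.1%. Within 50 kb replicate 1 had 2 regions and replicate 2 none, where 41.3% of genes had none in either and 44.5% had some in both. Within 200 kb the lists held 4 and 2 regions, equal to the medians over all genes, and 77.4% of genes had H3K9me3 in both. A single site was shared by the replicates, about 120 kb upstream, at 30429240 to 30430458 (fold 5.59, percentile 84.9) and 30429360 to 30429890 (fold 5.43, percentile 68.3). The other H3K9me3 regions stood between percentile 12.8 and 62.2 of their lists. It lay between the FLI1 group at the gene and that at 141 to 200 kb, overlapping neither. No H3K9me3 region overlapped a FLI1 region of the locus. The H3K9me3 regions covered 0.826% and 0.353% of the window with 200 kb in replicates 1 and 2. The share of FLI1 regions that overlap H3K9me3 over the whole lists was not counted.

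No region was called at the protein-coding neighbours of NR0B1. MAGEB1, MAGEB2, MAGEB3 and MAGEB4, cancer-testis antigen genes 52.2 to 84.1 kb downstream, had 0 regions within 10 kb in all 10 lists. The same held for 10.3% of all genes and 26.4% of genes on X. The pseudogenes PLCE1P1 and ENSG00000270794 are the other annotated genes within 200 kb.

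The 5 genes whose counts in the 10 lists were nearest to those of NR0B1 (Euclidean distance over log2 of the region count plus 1) were CES5A, SEPTIN11, SHQ1, ETV1 and IGBP1, at distances of 0.34, 0.425, 0.436, 0.515 and 0.578. Each had 4 to 9 FLI1 regions per library, 0 H3K27ac and H3K27me3 regions, and 1 and 0 H3K9me3 regions in replicates 1 and 2. Their gene bodies were longer, from 32.9 kb for IGBP1 to 112.6 kb for SHQ1. ETV1 is an ETS family transcription factor and IGBP1 another gene on X. At CES5A the strongest FLI1 region stood at percentile 99.9, 99.8, 98.8 and 97.3 of the lists.

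Other genes known for GGAA-microsatellite elements of the fusion were CAV1, GSTM4, FCGRT, ABHD6, KDSR, EGR2, SOX2, CCND1 and NKX2-2. FLI1 was in all 4 libraries within 10 kb at 9 of 9, against 56.3% of all genes, with a median of 5.75 regions per library against 6 at NR0B1. A run of at least 4 joined units lay within 250 bases of a summit in all 4 libraries at 2 of 9, CAV1 and FCGRT, as at NR0B1 and 1.7% of all genes. ABHD6 and KDSR had runs of 13 and 16 units there in both set B libraries but in neither set A library. At CAV1, which encodes the caveolae protein caveolin-1, the longest had 12 units in set A and 20 in set B. H3K27ac was in both libraries at 4 of 9, against 28.3% of all genes, and CAV1 had 7 and 4 H3K27ac regions. H3K27me3 was in both libraries at 2 of 9, against 17.6% of all genes. With 9 genes these counts are a description and were not tested. Known elements of some of these genes, EGR2 among them, lie beyond 10 kb and were not counted here.

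A list of 8 genes tied to steroid-hormone nuclear receptor function, which NR0B1 acts on or with, was also counted, with no test. It includes WT1, a transcription factor and not a gene of steroid synthesis. FLI1 was in all 4 libraries at 3 of 8 (NR5A2, NR0B2 and CYP11A1), against 56.3% of all genes. It was in none at 4 of 8 (NR5A1, CYP17A1, HSD3B2 and WT1), against 23.5% of all genes. NR5A1, the receptor that NR0B1 represses, had 2 and 2 H3K27me3 regions. H3K27me3 was in both libraries at 5 of 8, against 17.6% of all genes, and H3K27ac in both at 0 of 8, against 28.3%. At NR0B2, the closest relative of NR0B1, the single FLI1 region stood at percentile 63.4, 56.7, 92.9 and 87.2, and no GGAA run was within 250 bases of its summit.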

How the data were processed

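The 10 deposited lists hold peaks of 1 antibody library each, called after duplicate removal with the same-numbered IgG library of its set as control, per the names of the deposited peaks, so FLI1 and H3K27ac of set A share controls; replicates were not pooled. The submitters' processing notes name cutadapt 4.4, Bowtie2, Picard 2.17.11 and MACS2 2.1.1 and the build hg38, without roles. The deposited fold is a ratio to IgG, and the deposited −log10 p and −log10 q are its significance (lowest −log10 q 2.00). The deposited score restates −log10 q and was not used. The IgG libraries and reads were not analysed here.

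Analyses used the 22 autosomes and X and GENCODE release 44. Overlapping peaks of a list were merged; overlap means at least 1 base. Percentiles are within a list. GGAA runs have at least 4 consecutive units in hg38, joined over gaps of up to 4 bases where stated. Sequences are from hg38 or the RefSeq promoter table, where NR0B1 was matched by symbol. Mean coverage and summit fragments were solved from fold and −log10 p, assuming a Poisson p, a pseudocount of 1 and 1 scale per library. Regions with a −log10 p of 300 or more were not solved. Of the rest, 94.6% to 100% of FLI1 regions and 96.7% to 97.3% of H3K27ac regions had a solution. On 2365 simulated peaks, at least 67.0% per simulated library were solved, and 100% of the solved were right. The simulated peaks were made with these same assumptions, so they check the solving and not whether the deposited peaks follow the assumptions. Sets were compared by exact permutation tests, with Benjamini-Hochberg adjustment over 8. The genes, lists and tests were chosen with earlier results of these data known. Genes were named by a rule: all within 200 kb, the 5 with the nearest counts, and 2 lists. Scaled fragments, their ratios, and ranks by fragments or on X only were added after the values were seen. Alternatives covered window, significance, overlap rule, run length, ranked measure and leaving out libraries. Python 3.11.15, numpy 2.4.6, scipy 1.17.1, pandas 2.3.3 and matplotlib 3.10.9 were used.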

Additional observations from a re-analysis of the deposited data

How the results depend on the processing

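Of the 89 alternatives run, 72 kept the direction of a set difference or left a count or share near its main value. No set difference reversed on its own scale, and a count or share could not be labelled as reversed. Part of this was fixed in advance. The replicate block gives the same mean difference as the main comparison. Mark counts of 0 stay at 0 when a replicate is left out or the significance raised. Near was a wide tolerance. It took in a mean of 4 FLI1 regions at a −log10 q of at least 10, against 6. It also took in 73.9% of genes with 50 kb, against 56.3%. Fold and fragments over mean coverage were counted as separate results, and between them the set difference at the microsatellite does turn (25.2 against -11.99). The set difference in the percentile of the strongest region ranged from 4.93 to 19.1 points when each library was left out, and was 9.93 by −log10 p, 9.45 by summit fragments and 10.1 among regions on X. With the replicate block it was 12.01 (pairs of 4.32 and 19.7, exact permutation p = 0.5, the smallest for 2 pairs); the labels do not say that numbers pair libraries. The mean number of FLI1 regions was 11 with 200 kb either side, and from 5.67 to 6.33 leaving out each library. Regions with peaks of all 4 libraries fell from 2 to 0 under 50% reciprocal overlap and with summits within 250 bases. At the microsatellite the widths were 6446 and 6419 bases in set A, against 2347 and 2476 in set B. Its summits lay 1679, 1673, 1334 and 1372 bases upstream of the start. The downstream widths were 2467, 2764, 851 and 2231 bases, with summits 850, 440, 904 and 871 bases past the gene's end. Why the lists differ in width and summit was not tested. Within 100 bases, 2 of 4 libraries had a run at the strongest summit. The longest run was 25 units once joined, against 11. The mean number of H3K9me3 regions, 0.5, was 1 with 50 kb, 3 with 200 kb, 0 at a −log10 q of at least 5, and 0 to 1 leaving out a replicate. The share of genes with FLI1 in all 4 libraries, 56.3%, was 91.4% with 200 kb, 33.8% within 1 kb of the start and 36.3% on X. The share of runs, 8.22%, was 16.1% with at least 6 units, 22.6% with 10, 30.5% with 15 and 5.21% on X. Mean coverage could be solved for FLI1 and H3K27ac alone, so the depth behind an H3K9me3 or H3K27me3 region that was not called is unknown.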
